A study of Homo sapiens with 7 samples.

Results

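The 10 one-megabase windows of the hg19 genome with the most replicated HOXB13-K13ac sites in C4-2B cells are described here. C4-2B is an established castration-resistant prostate cancer line derived from LNCaP, and all 7 libraries of the study came from it, without any treatment beyond growth in charcoal-stripped serum, which is poor in steroid hormones. The libraries comprise 3 chromatin immunoprecipitations with an antibody to HOXB13 acetylated at lysine 13 (HOXB13-K13ac), 2 IgG precipitations with a non-specific antibody and 2 inputs of sheared chromatin. The cells hold no genetic alteration named in the labels, no untreated or unacetylated comparison was analysed here, and nothing states whether replicates were separate cultures. The deposited lists give no read counts, so the depth of each library is unknown. A replicated site is a region, merged from peaks with at least 1 bp in common, that holds a peak in at least 2 of the 3 HOXB13-K13ac libraries. The windows were chosen by this very count, so their density is a description and no test was made of it. They hold 2979 of the 148463 peaks in the 6 deposited lists, and 600 of the 27046 replicated sites.

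HOXB13 is a homeobox transcription factor that marks the prostate lineage and can bind DNA with the androgen receptor and forkhead proteins. Acetylation of a transcription factor's lysines can change the proteins it recruits, and bromodomain proteins read such marks. In the genome at large, promoters of broadly used genes lie close together in G+C-rich, gene-dense stretches, where chromatin is often open and where many ChIP-seq experiments give closely spaced peaks.

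In order of their number of sites the windows are called W1 to W10. W1 is chr19:1000001-2000000 with 75 sites, W2 chr1:1000001-2000000 and W3 chr17:79000001-80000000 with 62 each, and W4 chr9:139000001-140000000 with 60. W5 is chr16:67000001-68000000 with 59 sites and W6 chr16:30000001-31000000 with 58. W7, chr19:18000001-19000000, and W8, chr9:130000001-131000000, have 57 each, and W9, chr11:67000001-68000000, and W10, chr9:140000001-141000000, have 55 each. W4 and W10 adjoin each other. Apart from W1, neighbouring windows in this order differ by at most 2 sites, and the exact 95% Poisson interval of W1 (59.0 to 94.0 sites, counting error only) overlaps that of W10 (41.4 to 71.6).

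No annotation of hg19 was used, so no peak was matched to a gene. What the windows contain is given from general knowledge of the human gene map, with the order of genes taken from RefSeq on another assembly (GRCh38.p14). Between a first and a last gene known to lie in each window, that order lists 26 to 44 protein-coding genes per window and 360 in all. W1, between ABCA7 and CSNK1G2, includes the tumour suppressor kinase STK11, the E-protein transcription factor TCF3 and GPX4, which limits lipid peroxidation. W2, between RNF223 and GABRD, includes the Wnt adaptor DVL1, the G protein subunit GNB1 and the T cell co-stimulator TNFRSF4. W3, between AATK and DCXR, includes the cytoskeletal actin ACTG1, the protein disulfide isomerase P4HB and the small MAF factor MAFG. W4, between LHX3 and UAP1L1, includes the receptor NOTCH1, the signalling adaptor TRAF2 and the prostaglandin synthase PTGDS. W5, between CBFB and LCAT, includes the insulator protein CTCF, the cell cycle repressor E2F4 and HSD11B2, which inactivates cortisol. W6, between INO80E and SETD1A, includes the kinase MAPK3, the glycolytic aldolase ALDOA and the histone H3 methyltransferase SETD1A itself. W7, between CCDC124 and UPF1, includes the AP-1 subunit JUND, the PI3-kinase regulator PIK3R2 and the stress cytokine GDF15. W8, between SLC2A8 and CIZ1, includes the endothelial co-receptor ENG, the transcription elongation kinase CDK9 and the iron-siderophore carrier LCN2. W9, between GRK2 and KMT5B, includes the choline kinase CHKA, the phosphatase subunit PPP1CA and the detoxifying enzyme GSTP1, whose promoter is known for its methylation in prostate cancer. W10, between DPP7 and EHMT1, includes the histone methyltransferase EHMT1, the glutamate receptor subunit GRIN1 and the anaphase-promoting complex subunit ANAPC2.

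To show how letters of a HOXB13 motif can stand in promoters of these stretches, the 250 bases before the annotated start are printed for genes whose RefSeq promoter entry holds CCAATAAA or TCGTAAA, searched on both strands in 300 bases (250 before to 50 after the start). The match, on either strand, is in capitals, each sequence runs with its gene, and coordinates are those of GRCh38.p14 and cannot be set beside hg19 positions. These promoters were picked for the match and do not stand for the promoters of the windows in general. TUBB4B encodes a beta-tubulin, MPV17L2 a mitochondrial membrane protein, NDUFAF8 an assembly factor of respiratory complex I, and ALDOA an aldolase of glycolysis.
MPV17L2 (GRCh38.p14 chr19:18192968-18193217, plus strand): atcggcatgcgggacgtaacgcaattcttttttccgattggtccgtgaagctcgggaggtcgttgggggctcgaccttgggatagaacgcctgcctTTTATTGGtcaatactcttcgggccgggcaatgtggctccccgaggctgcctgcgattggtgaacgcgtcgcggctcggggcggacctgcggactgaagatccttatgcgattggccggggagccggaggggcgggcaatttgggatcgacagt
TUBB4B (GRCh38.p14 chr9:137241037-137241286, plus strand): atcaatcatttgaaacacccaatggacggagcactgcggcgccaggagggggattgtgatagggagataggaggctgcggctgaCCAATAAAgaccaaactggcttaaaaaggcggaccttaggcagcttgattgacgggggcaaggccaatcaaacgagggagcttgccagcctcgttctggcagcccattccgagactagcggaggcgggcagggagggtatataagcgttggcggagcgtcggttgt
NDUFAF8 (GRCh38.p14 chr17:81239061-81239310, plus strand): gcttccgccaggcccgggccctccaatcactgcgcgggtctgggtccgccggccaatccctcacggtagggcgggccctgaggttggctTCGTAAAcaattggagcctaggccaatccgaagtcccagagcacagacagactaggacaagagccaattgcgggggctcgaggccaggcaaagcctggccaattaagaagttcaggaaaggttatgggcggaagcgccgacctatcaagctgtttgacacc
ALDOA (GRCh38.p14 chr16:30065510-30065759, plus strand): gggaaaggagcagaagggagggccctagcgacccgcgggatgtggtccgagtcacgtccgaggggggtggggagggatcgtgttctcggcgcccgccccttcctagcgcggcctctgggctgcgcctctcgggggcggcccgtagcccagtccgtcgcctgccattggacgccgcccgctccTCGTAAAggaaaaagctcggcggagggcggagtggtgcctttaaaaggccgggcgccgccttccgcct

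TEPSIN, a vesicle coat protein gene, starts close to NDUFAF8 on the other strand and shares the same TCGTAAA match, so it is not printed. The letters CCAATAAA were in 2 of the 378 promoter entries matched in the windows (0.529%) and in 0.748% of the 22198 entries of all protein-coding genes. For TCGTAAA the counts were 4 of 378 (1.06%) and 0.545% of all entries, and 3 of these 4 entries are the NDUFAF8 and TEPSIN starts. Promoter entries were found for 287 of the 360 genes (79.7%), under the 80% required, so a check of motifs or base composition over the set is void and nothing is read from these shares. In W1 the entry with the most matches to the GC-box letters GGGCGG was that of TCF3, with 8 in the 250 bases before the start, shown in capitals on either strand, some of them overlapping. The 300 bases of that entry are 78.3% G+C, and 56.3% of all protein-coding entries hold GGGCGG at least once.
TCF3 (GRCh38.p14 chr19:1652616-1652865, minus strand): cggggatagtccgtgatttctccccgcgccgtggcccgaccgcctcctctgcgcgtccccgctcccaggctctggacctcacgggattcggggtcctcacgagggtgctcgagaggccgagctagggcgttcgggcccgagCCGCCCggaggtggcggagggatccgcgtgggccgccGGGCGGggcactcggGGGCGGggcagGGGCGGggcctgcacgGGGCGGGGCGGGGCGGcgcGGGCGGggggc

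Counted between the outermost peaks of each chromosome, the genome had 3021 one-megabase windows. The median window held 6 replicated sites, the upper quartile was 13 and the 99th percentile 44, and 549 windows held none. The 10 windows make up 0.331% of all windows and hold 2.22% of the replicated sites. Their density was 60 sites per Mb (exact 95% Poisson interval 55.3 to 65.0), compared with 8.85 per Mb (8.74 to 8.95) in the rest of the genome, a ratio of 6.78 (6.24 to 7.35). The ratio was 10.6 without replicate 1 and 10.9 without replicate 2. Just inside the rule stood W9 and W10 with 55 sites, and just outside it 4 windows with 52 sites each, on chromosome 11 (from 64000001), chromosome 12 (from 81000001) and chromosome 16 (from 1 and from 2000001). The counts of 55 inside and 52 outside lie within the counting interval of W9 and W10. These are the values that chose the windows.

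**Figure D1:**
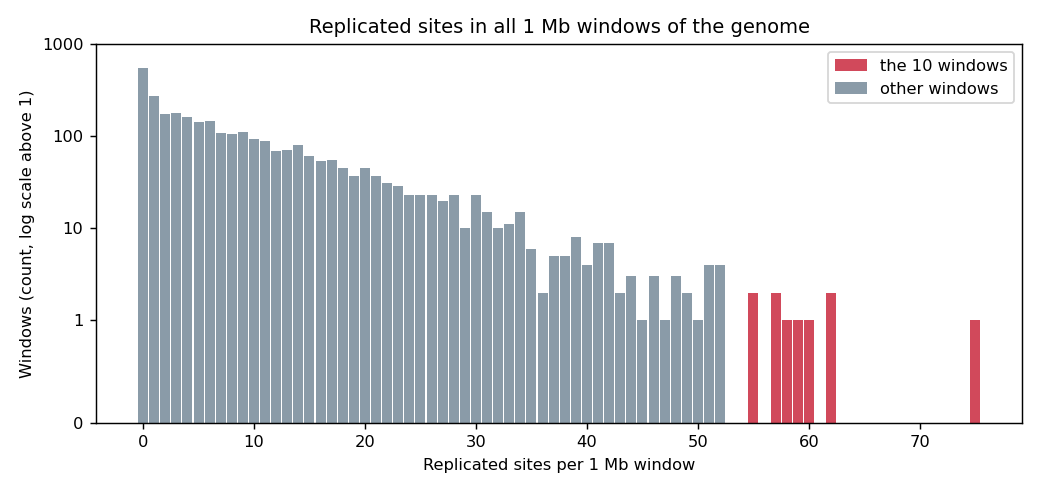
Histogram of all 1 Mb windows of the genome by their number of replicated sites (horizontal axis, sites per window; vertical axis, number of windows, on a log scale above 1). The 10 windows, in red, hold 55 to 75 sites, and no other window, in grey, holds more than 52.

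The windows stood out of their surroundings to different degrees. W4 followed a megabase of 8 sites and ran into W10 with 55, which in turn was followed by the last stretch of the chromosome with 1 site. W1 lay between megabases of 33 and 51 sites, and W9 between 44 and 22. W2 lay between 18 and 31 sites, W3 between 23 and 49, and W5 between 20 and 21. On chromosome 9 the density outside the windows was 6.78 sites per Mb, and on chromosome 19, which is gene-rich throughout, it was 23.8. W7 on chromosome 19, with 57 sites, therefore stands over a denser chromosome than W8 on chromosome 9, which has the same number.

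Peaks of every list but one were dense in the windows, and the libraries contributed unequally. The lists of the 3 replicates chose the windows, so their ratios to the rest are a description and no independent evidence of density. Replicate 1 (library series 2898), whose list does not name its control, had 874 peaks in the windows, 87.4 per Mb against 13.5 per Mb in the rest, a ratio of 6.46 (exact 95% interval 6.04 to 6.91). Replicate 2 (series 3047), called against input, had 761 peaks, 76.1 per Mb against 14.9 per Mb, a ratio of 5.12 (4.76 to 5.50). Replicate 3 (series 3047), called against input, had 318 peaks, 31.8 per Mb against 5.99 per Mb, a ratio of 5.31 (4.73 to 5.93). Replicate 3 thus gave fewer window peaks than either other library, and its list stands apart genome-wide as well, with narrower and weaker peaks. The names that tie lists to replicates 1 and 3 differ by a single punctuation mark in the labels, so values given for these 2 replicates would change places if those names had been exchanged. The 1 peak of replicate 3 called against IgG lies outside the windows. The series of replicates 2 and 3 holds 1 input and 1 IgG library, so the lists of these replicates may share a control. A further HOXB13-K13ac list, which the labels give to no particular library, had a peak at 557 of the 600 sites (92.8%), where the share over all replicated sites is 86.9%.

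Replicate 3 also differed most from window to window. W3 held 59 of its peaks, the most of any window in the genome for that list, alongside 93 of replicate 1 and 78 of replicate 2. W5 held 12 peaks of replicate 3, alongside 88 of replicate 1 and 71 of replicate 2, and ranked 379th in the genome by replicate 3 peaks while ranking 6th by replicate 1 peaks. W1 was first by replicate 1 with 108 peaks, second by replicate 2 with 95, and of rank 3 by replicate 3 with 48. By replicate 2 peaks, the first window of the genome was none of the 10 but the one on chromosome 12 from 81000001, with 97. Of the 10 densest windows by replicate 1 peaks, 7 were among the 10 described here, as were 7 of the 10 densest by replicate 2 and 4 of the 11 that tie at rank 10 or better by replicate 3.

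**Figure D2:**
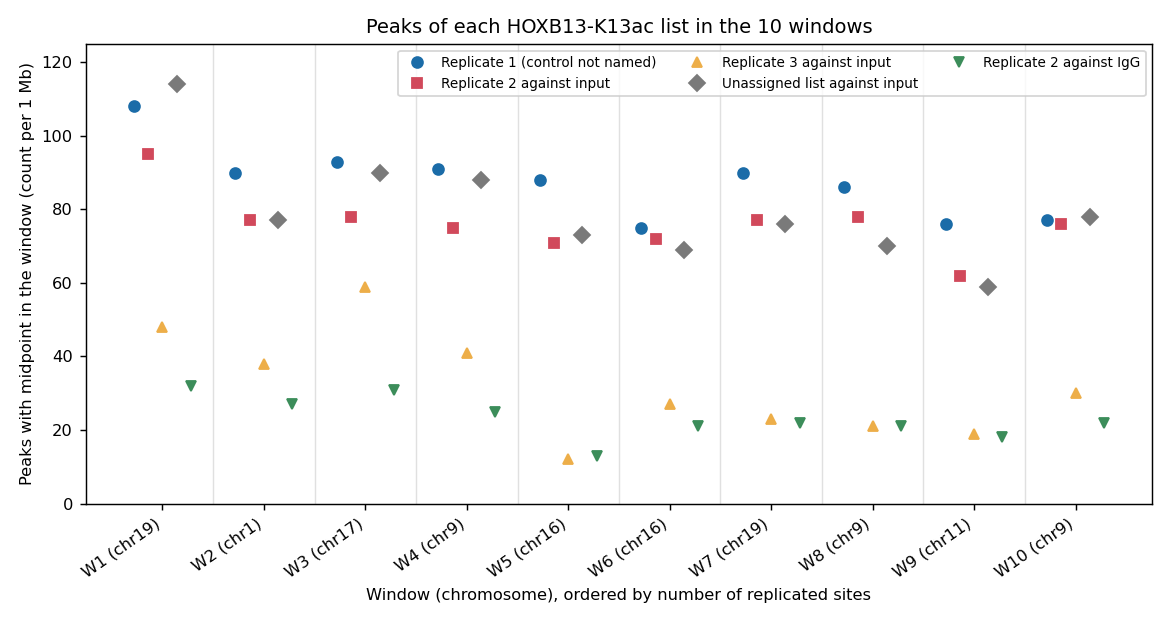
Number of peaks with their midpoint in each window (vertical axis, count per 1 Mb) for each deposited HOXB13-K13ac list, with windows W1 to W10 and their chromosomes on the horizontal axis. Replicates 1 and 2 lie between 62 and 108 peaks in every window, while replicate 3 runs from 12 in W5 to 59 in W3.

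Median peak width and median fold enrichment, as the authors' lists give them, were higher in the windows than in the rest of the genome in each of the 3 libraries. In replicate 1 the median width was 689 bp (quartiles 418 and 1114) in the windows and 553 bp (370 and 869) in the rest. In replicate 2 it was 849 bp (544 and 1403) and 632 bp (418 and 1029), and in replicate 3 it was 247.5 bp (190 and 325) and 235 bp (185 and 303). The median fold enrichment over the control at the summit was 5.70 in the windows and 4.66 in the rest for replicate 1. It was 9.12 and 6.45 for replicate 2, and 4.67 and 4.40 for replicate 3. For all 3 libraries the quartile ranges of the windows and the rest overlap. Of replicate 2 peaks in the windows, 20.2% (exact 95% binomial interval 17.4 to 23.3) were among the strongest 10% of their list by q, and of those in the rest 9.82% (9.55 to 10.1). The corresponding shares were 17.2% and 9.84% for replicate 1 and 16.98% and 9.88% for replicate 3. The windows were chosen by peaks shared between these same lists, so these values are a description. How far they follow from that choice was not tested.

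Most of each window lay outside peaks. By window, replicate 1 peaks covered 61.1 to 97.2 kb, replicate 2 peaks 58.9 to 100.9 kb and replicate 3 peaks 3.16 to 17.8 kb. Replicate 1 peaks covered 7.74% of the bases of the windows and 0.958% of the rest. Replicate 2 peaks covered 8.14% and 1.25%, and replicate 3 peaks 0.872% and 0.156%. Overlaps between libraries in the windows have to be read beside these coverages, because a densely covered stretch meets any peak more often. Of the 318 replicate 3 peaks in the windows, 66.4% (60.9 to 71.5) shared sequence with a replicate 1 peak and 63.8% (58.3 to 69.1) with a replicate 2 peak. In the rest of the genome the shares were 29.0% (28.4 to 29.7) and 29.0% (28.3 to 29.6). Of replicate 1 peaks, 82.2% (79.4 to 84.6) in the windows and 76.8% (76.4 to 77.2) in the rest shared sequence with a replicate 2 peak. The rule counted regions shared between these same lists, so higher shares in the windows follow in part from the choice of windows. They are no result about the windows. How much of these differences follows from coverage was not tested.

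Merging the 3 lists gave 961 regions in the windows, of which 600 (62.4%) were replicated, compared with 41.2% of all 65675 merged regions. Since the rule counted these regions, the share is no result about the windows. Another 151 regions held only replicate 1 peaks, 106 only replicate 2 peaks and 104 only replicate 3 peaks. Replicate 1 regions found in no other library made up 15.7% (13.5 to 18.2) of the merged regions in the windows and 14.2% (13.96 to 14.5) in the rest. For replicate 2 alone the shares were 11.03% (9.12 to 13.2) and 25.6% (25.2 to 25.9), and for replicate 3 alone 10.8% (8.93 to 13.0) and 19.3% (19.02 to 19.6). Together these 3 shares are what the replicated share leaves, so they too are no result about the windows. Of the 600 sites, 433 rested on replicates 1 and 2 without replicate 3, 5 on replicates 1 and 3, and 1 on replicates 2 and 3. The remaining 161 sites, 26.8% (23.3 to 30.6), had a peak in all 3 libraries, compared with 16.8% (16.3 to 17.2) of the 26446 sites in the rest. The same 3 lists chose the windows, so this difference is a description and no independent trait of the windows. Of all 65675 merged regions in the genome, single-library ones included, 4591 (6.99%) were in all 3 libraries. This share has another denominator and cannot be set beside the shares of replicated sites. Using peaks whose −log10 q reached 5, the shares of replicated sites in all 3 libraries became 5.46% in the windows and 4.20% in the rest. Requiring summits no more than 100 bp apart gave 16.1% in the windows and 11.1% in the rest.

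The windows spread widely in this share. W3 had 26 of its 62 sites in all 3 libraries, 41.9% (29.5 to 55.2), the highest count of any window in the genome. W2 had 23 of 62 (37.1%), W4 20 of 60 (33.3%) and W1 24 of 75 (32.0%). W5 had 6 of 59, 10.2% (3.82 to 20.8), below the 16.8% of the rest of the genome. Its 88 replicate 1 peaks and 71 replicate 2 peaks lay within the ranges of the 10 windows, 75 to 108 and 62 to 95. Its median replicate 1 peak fold (4.56), median replicate 2 site fold (9.17) and median site width (968 bp) were the lowest of the 10. The interval of W5 lies wholly below that of W3, while those of W6 to W10, whose shares run from 14.5% in W9 to 27.6% in W6, overlap each other. W5 and W3 have the lowest and the highest share and were set side by side after the values were seen. The intervals cover counting error only, and no test was made between windows. Without replicate 1, when a site had to be in both other libraries, the 10 windows held 161 sites, and without replicate 2 they held 170, so the high site counts rest on replicates 1 and 2. Without replicate 3 there were 594 sites, and the same 10 windows stayed at rank 10 or better. Without replicate 1 or without replicate 2, 4 of the 10 did.

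**Figure D3:**
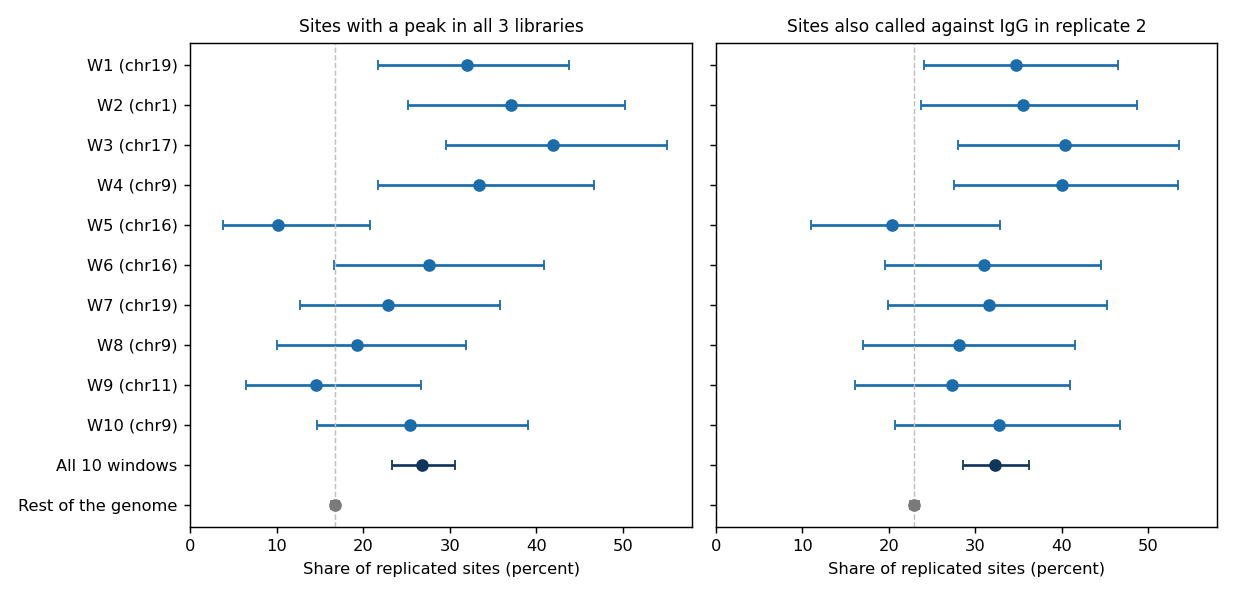
Share of replicated sites (horizontal axes, percent) with a peak in all 3 libraries (left) and with a replicate 2 peak called against IgG (right), for each window, all 10 windows and the rest of the genome (dashed line). Bars are exact 95% binomial intervals; W3 is highest in both panels, at 41.9% and 40.3%, and W5 lowest, at 10.2% and 20.3%.

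As merged sites, those of the windows had a median width of 1184 bp (quartiles 800.5 and 1777) against 1001 bp (694 and 1509) in the rest. Among sites of all 3 libraries the median widths were 1663 and 1556.5 bp, and among sites of 2 libraries 1046 and 924 bp. The highest fold enrichment of a site's peaks had a median of 7.28 in the windows and 5.82 in the rest for replicate 1, and of 11.5 and 9.29 for replicate 2. For replicate 3, over the 167 window sites and 4710 other sites where it had a peak, the medians were 5.15 and 5.07. Limited to sites of all 3 libraries, the medians in the windows and the rest were 10.8 and 10.6 for replicate 1, 18.9 and 17.2 for replicate 2, and 5.17 and 5.13 for replicate 3. The replicate 2 quartile ranges of the sites of all 3 libraries were 12.9 to 27.9 in the windows and 11.6 to 24.8 in the rest. Over all sites with a replicate 2 peak they were 7.02 to 17.9 and 6.39 to 14.7. In both sets the medians differed by less than these ranges, which give the spread of sites and not the uncertainty of a median. Among sites of 2 libraries the medians were 6.05 and 5.22 for replicate 1 and 9.26 and 8.48 for replicate 2. For replicate 3, with only 6 such sites in the windows, they were 4.13 and 4.43. By window, the median site enrichment in replicate 2 ran from 9.17 in W5 to 13.9 in W3, and in replicate 1 from 5.92 in W9 to 8.53 in W4. The summits of the strongest replicate 1 and replicate 2 peaks in a site lay a median of 77 bp apart in the windows and 79 bp in the rest.

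**Figure D4:**
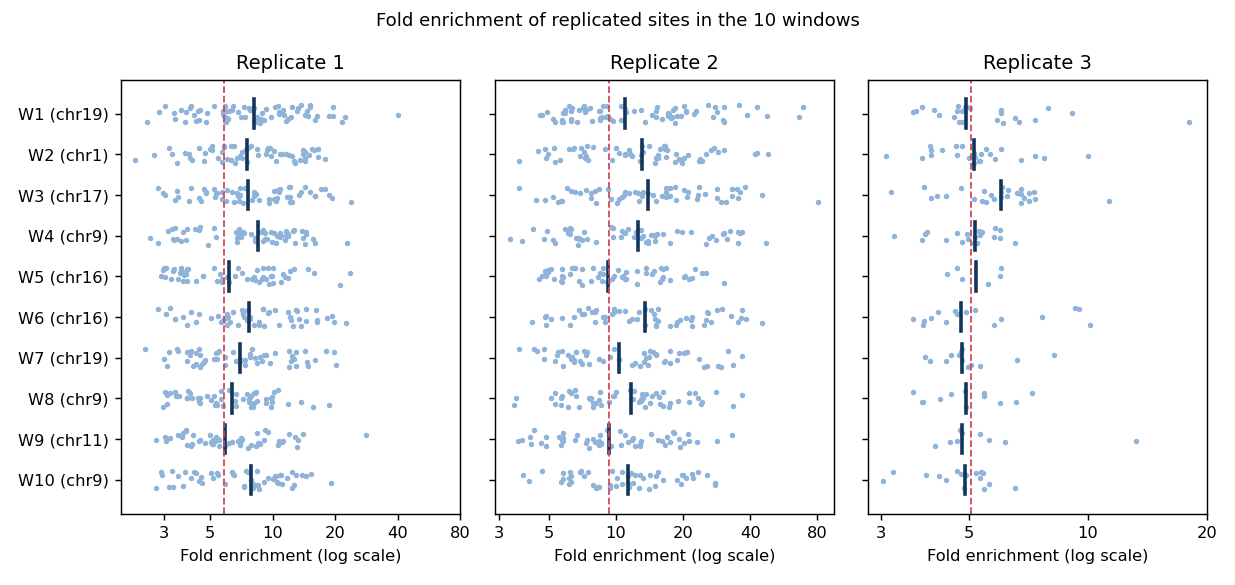
Fold enrichment of each replicated site (horizontal axes, log scale; the highest of the library's peaks in the site) in replicates 1, 2 and 3, by window. Each dot is a site, dark bars are window medians and the dashed red line is the median of sites in the rest of the genome; W5 and W9 lie at or just beside that line in replicate 2 (9.17 and 9.30 against 9.29) and W3 farthest above it (13.9).

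Ranked by the lowest of their 3 folds, the strongest single sites lay in W1, W9 and W3. In W1 the site at chr19:1652587-1653603 had fold enrichments of 40.2 (replicate 1), 38.8 (replicate 2) and 18.01 (replicate 3), and those of replicates 1 and 3 were the highest of their whole lists. A second W1 site, chr19:1591033-1592857, had 15.1, 68.9 and 9.13 in the same order, and 8.56 over IgG in replicate 2, the highest fold over IgG in the windows. The 2 sites lie in the same megabase, but the first had the higher fold in replicates 1 and 3 and the second in replicate 2. In W9 the site at chr11:67980483-67982226 had 28.3, 33.1 and 13.2. In W3 the site at chr17:79817447-79818510 had 10.5, 35.3 and 11.3, the only one of the 20 sites named in this way (the 2 per window whose lowest fold was highest) whose lowest fold was not that of replicate 3. A neighbouring W3 site, chr17:79827851-79831176, had 23.8, 80.8 and 6.89, with 8.36 over IgG. Replicate 3 therefore set the order of nearly all named sites.

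In the remaining windows the named sites reached at most 10.1-fold in replicate 3. In W2 the first site, chr1:1509289-1511032, had 14.9, 48.0 and 10.005 in replicates 1, 2 and 3. In W6 the first, chr16:30537098-30539612, was built from 2 peaks of each library and had 16.2, 28.3 and 10.1. In W7 the first, chr19:18390608-18392344, had 9.06, 15.1 and 8.22, and in W8 chr9:130565127-130566516 had 15.6, 23.2 and 7.20. In W4 the first by the lowest of 3 folds, chr9:139376490-139377544, had 11.9, 16.2 and 6.53, whereas another W4 site, chr9:139843492-139845556, had 22.9, 47.3 and 5.80 with 7.41 over IgG. In W5 the first, chr16:67193158-67194874, had 7.48, 11 and 6.003, and in W10 chr9:140316810-140317648 had 7.27, 7.48 and 6.53. Sites with high folds in replicates 1 and 2 were thus not always those highest in replicate 3. Over all 20, replicate 1 folds ran from 6.86 to 40.2 with a median of 12.5, replicate 2 folds from 6.22 to 68.9 with a median of 22.7, and replicate 3 folds from 5.61 to 18.01 with a median of 7.27.

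Broad sites were part of the picture as well. Sites wider than 2 kb numbered 105 in the windows (17.5%, 14.5 to 20.8), compared with 12.1% (11.7 to 12.5) in the rest. These shares were not split by the number of libraries in a site. How far they follow from the choice of windows was not tested. By window, there were 17 such sites in W3, 16 in W2 and 6 each in W5 and W7. The widest, chr9:140061365-140069249 in W10, spanned 7885 bp and merged 3 replicate 1 peaks, 1 replicate 2 peak and 5 replicate 3 peaks. The next, chr9:130732035-130738872 in W8 and chr19:18484303-18491070 in W7, spanned 6838 and 6768 bp and had no replicate 3 peak. Their replicate 2 folds, 36.6 and 36.7, were the highest of their windows.

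Within the windows the sites were unevenly spaced. The median gap between neighbouring sites was 6.45 kb (quartiles 0.435 and 18.4), and 351 of the 590 gaps (59.5%) were 10 kb or less. Gaps shorter than elsewhere follow from the number of sites that chose the windows, so they are not set against the rest of the genome. The window medians ran from 3.44 kb in W10 to 9.68 kb in W6. Each window also had a long empty stretch, and the longest gap between sites ran from 77.1 kb in W7 to 210.9 kb in W6, where it lay from 30135271 to 30346208. In W10 all 55 sites lay before position 140640991, so the last 359 kb held none and the first 200 kb held 26. In W1 the 100 kb from 1200001 held 16 sites, and in W10 the 100 kb from 140100001 held 18, the most in any such stretch of the 10 windows.

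When sites 10 kb apart or less were joined, 31 clusters of at least 5 sites had their midpoint in the windows, and 196 of the 600 sites (32.7%) were in such clusters. In W2, 1 of these clusters began before the window's border. Like the gaps, this share follows in part from the density of the windows. W1 and W10 had 5 each, W6 had 1 and W9 had 0, although W9 and W10 hold equally many sites. The largest, chr16:67437576-67491246 in W5, had 13 sites, made of 14 replicate 1 peaks and 13 replicate 2 peaks, and 0 replicate 3 peaks. The next, chr19:1236974-1285421 in W1, had 12 sites, 6 of them in all 3 libraries, with 9 peaks of replicate 3. In W10, chr9:140111054-140136062 held 11 sites in 25.0 kb, of which 4 were in all 3 libraries and 5 were also called against IgG. Clusters of like size thus differed in whether replicate 3 took part.

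**Figure D5:**
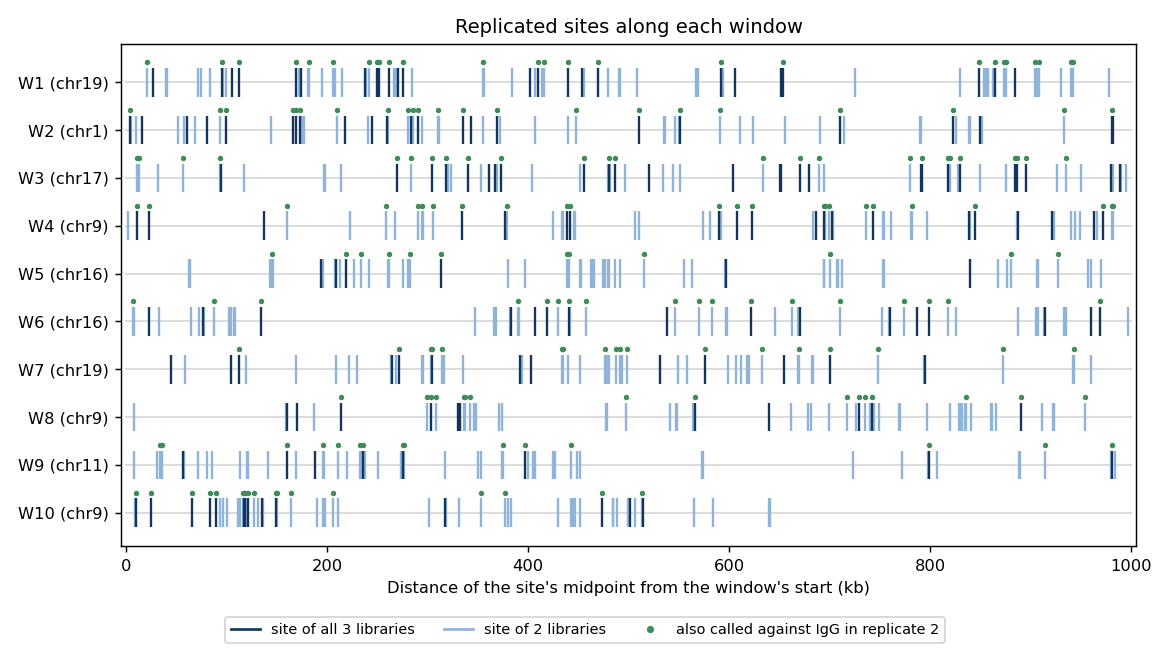
Midpoints of the 600 replicated sites along each window (horizontal axis, distance from the window's start in kb), with sites of all 3 libraries in dark blue, those of 2 libraries in light blue, and green dots above sites also called against IgG in replicate 2. Sites bunch within every window, W10 is empty over its last 359 kb, and dark lines are rare in W5.

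IgG precipitations are, beside the inputs, a background measurement of the study, and replicates 2 and 3 each have a list called against IgG. That of replicate 3 holds 1 peak, outside the windows. The replicate 2 list had 232 peaks in the windows, 23.2 per Mb against 2.43 per Mb in the rest, a ratio of 9.53 (8.33 to 10.9). The same library called against input gave 5.12, but the 2 lists are not of like strength. Their median −log10 q in the windows was 0.686 against IgG and 14.7 against input. The IgG list comes from a library that the rule used, so the ratio is no independent evidence of density. Of the 600 sites, 194 were called against IgG, 32.3% (28.6 to 36.2), compared with 22.9% (22.4 to 23.5) in the rest and 23.2% of all replicated sites. Without replicate 1 the shares were 54.0% in the windows and 49.7% in the rest, and without replicate 2 they were 51.8% and 48.1%. With IgG peaks of q 0.05 or less the count was 52, 8.67% (6.54 to 11.2), compared with 5.48% (5.21 to 5.76) in the rest and 5.55% of all replicated sites. Among sites of all 3 libraries the shares were 55.3% (47.3 to 63.1) in the windows and 51.5% (49.98 to 52.9) in the rest, and among sites of 2 libraries 23.9% (20.001 to 28.2) and 17.2% (16.7 to 17.7). By window the share ran from 12 of 59 sites in W5 (20.3%) to 25 of 62 in W3 (40.3%), and the exact intervals of these 2 windows overlap. IgG peaks in the windows had a median fold enrichment of 3.24, and those in the rest 3.09. Their median −log10 q was 0.686 in both, and the upper quartiles, 1.06 and 1.005, fell short of a q of 0.05. Of IgG peaks in the windows, 9.48% (6.04 to 14.005) were among the strongest 10% of their list by q, and of those in the rest 10.008% (9.33 to 10.7). By q, most IgG calls were thus weak, and they were no stronger in the windows. Of the 20 sites named by their lowest fold, 11 were called against IgG, and 8 of these with a q of 0.05 or less. The windows without an IgG call at either of their 2 named sites were W4, W5 and W6.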

How the data were processed

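ChIP-seq peak lists from 3 HOXB13-K13ac libraries of C4-2B cells were analysed, in coordinates of hg19 counted from 1. The submitters' processing notes name MACS2, Bowtie2, BWA and CASAVA 1.4 and the builds hg19 and GRCh37. Roles, thresholds, filters and pooling were not given in the sources used here. Each peak has a fold enrichment (a ratio to the control at the summit) and a −log10 q, as deposited by the authors. The lists hold no read counts, so depth is unknown, and intervals cover counting error only. A list was tied to a library by the spelling in the labels. The sixth list, which matches no library's label, was left out of the sites.

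Windows, members, lists and gene names were chosen with earlier results of these data known. A peak or site belonged to a window by its midpoint. Densities used the stretch between the outermost peaks of each chromosome. Named sites were, in each window, the 2 sites present in all 3 lists whose lowest fold was highest, and over the windows the 3 widest and the 3 with the highest replicate 2 fold over IgG. Because the rule used the same lists, no test was made between windows and the rest. With no hg19 genome or annotation used here, motifs at summits and gene lists by position were not run. Python 3.11.15, NumPy 2.4.6, pandas 2.3.3, SciPy 1.17.1 and Matplotlib 3.10.9 were used. The code was tested on simulated lists, where all 1110 sites placed in at least 2 lists were recovered, neighbours included. Alternatives changed the overlap rule, the q threshold, the libraries, the assignment to windows and the window borders.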

Additional observations from a re-analysis of the deposited data

Results flagged for a closer look

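The HOXB13-K13ac list whose name matches no library was not used to define the sites described above, and it was singled out for that reason. It had 794 peaks in the 10 windows, 79.4 per Mb against 11.8 per Mb in the rest of the genome, a ratio of 6.70 (exact 95% interval 6.24 to 7.19). W1 was its densest window of the whole genome with 114 peaks, and W9 had the fewest of the 10 with 59. Of the 600 replicated sites in the windows, 557 held one of its peaks, 92.8% (90.5 to 94.8), compared with 86.8% (86.4 to 87.2) in the rest and 86.9% of all replicated sites. All 20 sites named by their lowest fold were in it. Of its own window peaks, 97.6% shared sequence with a peak of one of the 3 replicates, compared with 95.2% in the rest. Whether it repeats one of the 3 libraries is not given, so it is not a further replicate.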

How the results depend on the processing

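Leaving out each HOXB13-K13ac library in turn gave 161 to 594 replicated sites in the windows, a density ratio to the rest of 6.78 to 10.9 and a share called against IgG of 32.7% to 54.0%, where the rest of the genome had 49.7% and 48.1% when replicate 1 or 2 was left out and 23.2% when replicate 3 was. The counts of 161 and 170 arose without replicate 1 and without replicate 2, when a site had to hold a replicate 3 peak, and that list is the shortest. Moving all windows by 0.5 Mb gave density ratios of 5.42 upward and 5.92 downward, both below the 6.78 of the windows as chosen. The share of sites in all 3 libraries was 16.1% with summits within 100 bp, 2.87% when 0.5 of each peak's width had to overlap, 5.46% with a −log10 q of 5 or more, and 85.4% with the unassigned list in place of replicate 3. In the rest these shares were 11.1%, 2.24%, 4.20% and 71.9%. The share called against IgG was 37.7% with summits within 100 bp, 1.32% with a −log10 q of 5 or more and 8.67% with IgG peaks of q 0.05 or less, against 27.1%, 0.889% and 5.48% in the rest. Of the peaks in the windows, 85.0% in replicate 1, 83.3% in replicate 2, 10.1% in replicate 3 and 3.02% in the IgG list had a −log10 q of at least 5. The cause of the shifts was not tested. Of the 10 windows, 7 stayed at rank 10 or better with summits within 100 bp, 8 with the overlap of 0.5 and 9 with a −log10 q of 5 or more. No paired analysis was possible because no result comes from a test between groups. Read depth is unknown, so a missing replicate 3 peak, as in W5, cannot be told from low depth.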

Other observations

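Of the 10 windows, 5 lie near the end of a chromosome arm. W1, W2, W3, W4 and W10 are within 3 Mb of the outermost peak of their chromosome, and W5 to W9 lie at least 10.045 Mb away, a split made after the values were seen. The 5 windows near an end held 314 sites, of which 107 (34.1%, exact 95% interval 28.8 to 39.6) were in all 3 libraries. The 5 others held 286 sites, of which 54 (18.9%, 14.5 to 23.9) were. Replicate 3 had 216 peaks in the windows near an end, 53.9 for each 100 of replicate 2, and 102 in the others, 28.3 for each 100. Among all windows outside the 10, the 187 near an end gave 24.9% (23.3 to 26.5) of sites in all 3 libraries and 58.2 replicate 3 peaks for each 100 of replicate 2, and the 2824 far from an end 15.8% (15.4 to 16.3) and 38.6. Set against replicate 1 the difference outside the 10 was smaller, with 52.1 replicate 3 peaks for each 100 near an end and 43.4 far from one. Within the 10 windows it was 47.1 near an end and 24.6 in the others. No test was made of this split.

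Windows just outside the rule differed in replicate 3 as well. The first megabase of chromosome 16, with 52 sites, had 25 in all 3 libraries and 58 peaks of replicate 3. The window on chromosome 12 from 81000001, also with 52 sites, had 5 in all 3 libraries and 5 peaks of replicate 3, beside 97 of replicate 2.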
